A study of Mus musculus with 18 samples.

Results

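Genes that make or use NAD, 10 in all, were followed through mouse hearts taken 1 day after myocardial infarction (MI). Out of 19197 genes with a value, they were Nmrk1, Nmrk2, Nampt, Nmnat1, Nmnat3, Naprt, Cd38, Parp1, Sirt1 and Sirt3. They were chosen by name around the high Nmrk2 values of infarcted against sham-operated hearts, so their levels against sham are given as a description with no test. All animals were C57BL/6 mice, an inbred laboratory strain, and the labels name no mutant allele. The 18 libraries formed 3 groups of 6: sham operation with vehicle (sham_vehicle), MI with vehicle (MI_vehicle) and MI with DCA at 10 mg/kg/d (MI_DCA). DCA is not spelled out in the sample labels, no sham group received it, and the labels do not say what the vehicle was. The tissue was the apex of the heart, a bulk sample in which fewer cells of a type and less RNA per cell cannot be told apart. Values were FPKM, read numbers divided by transcript length and library depth. Recovery that differs between genes in library preparation is not corrected, so ranks and ratios between genes are approximate. No label ties a library to a mouse of its own, so every error and p-value here describes variation among these libraries, part of which may be technical.

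NAD is the electron carrier of fuel oxidation and the substrate of enzymes that cleave it and release nicotinamide. Cells rebuild it by salvage. Nampt converts nicotinamide to nicotinamide mononucleotide, the kinases Nmrk1 and Nmrk2 make the same mononucleotide from nicotinamide riboside, and Naprt opens the route from nicotinic acid. Nmnat1 in the nucleus and Nmnat3 in mitochondria then add the adenylate part of the molecule. Cd38, Parp1, Sirt1 and Sirt3 consume it. Nampt is regarded as the main route of the healthy heart, and Nmrk2 is the kinase of striated muscle.

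Some infarcted hearts lay close to sham. Over the 12219 genes other than the members, the root mean square distance from the sham mean on the log2(FPKM + 1) scale was 0.266 in MI_DCA replicate 3, 0.291 in MI_DCA replicate 1, 0.321 in MI_vehicle replicate 4 and 0.345 in MI_DCA replicate 5. It was 0.552 to 0.854 in the other 8 infarcted hearts and 0.168 to 0.224 in the sham hearts. Estimated depth was 9400000 to 10600000 reads in sham, 11300000 to 13600000 in MI_vehicle and 10000000 to 12800000 in MI_DCA libraries. Defining cardiomyocyte genes were present in every heart. The summed FPKM of 12 cardiomyocyte markers was 41900 to 47900 in sham hearts, 40900 to 45300 in the 4 infarcted hearts near sham and 19000 to 33300 in the other 8. Of those 12 markers, 10 fell in MI_vehicle and 5 in MI_DCA against sham (limma, adjusted p under 0.05). Of 12 monocyte and macrophage markers, 10 rose in MI_vehicle and 5 in MI_DCA, with summed FPKM of 404 to 679 in sham, 660 to 1270 in MI_vehicle and 464 to 949 in MI_DCA hearts. Of 10 neutrophil markers, 6 passed the filter and all 6 rose in both groups, with summed FPKM of 11.1 to 40, 57.6 to 394 and 42.6 to 185 in the same order. Over all genes tested, 38.3% rose and 20.1% fell in MI_vehicle, and 15.5% and 8.33% in MI_DCA.

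The start regions of Nmrk2 and Nampt are printed because their mean levels differed from sham in opposite directions in the same groups. The sequences are from RefSeq, build GRCm38.p6, 5′ to 3′. The Nmrk2 stretch is on the minus strand at chr10:81202066-81202095 and holds a TATA box, in capitals, that starts 46 bases before the RefSeq start and 32 bases before the transcript start annotated by GENCODE. The RefSeq span of the gene reaches 228 bases further upstream than that start, so only 30 bases are shown. The Nampt stretch lies directly upstream of its RefSeq start on the plus strand, at chr12:32820085-32820334, with 75.6% G and C. Its capitals mark the hypoxia response core on the opposite strand.
Nmrk2: gctgcccaaaccTATAAAtgccccacagct
Nampt: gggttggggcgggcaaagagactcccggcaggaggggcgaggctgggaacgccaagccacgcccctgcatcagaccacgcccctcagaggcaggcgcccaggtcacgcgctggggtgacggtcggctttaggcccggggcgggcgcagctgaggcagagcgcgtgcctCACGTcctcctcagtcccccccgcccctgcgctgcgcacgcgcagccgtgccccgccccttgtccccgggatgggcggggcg

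Windows of this length were found for 9 of the 10 genes, and 7 motifs were searched on both strands, overlaps included. The TATA box (TATAAA), added after the letters had been seen, was in the window of 1 of the 9 genes, Nmrk2, and in 12.4% of all 32851 windows. The hypoxia response core (ACGTG) was in 3 of the 9, Nampt, Parp1 and Sirt1, and in 16.6% of all windows. The E-box (CACGTG), whose letters contain that core, was in 2 of the 9, Parp1 and Sirt1, and in 6.02% of all. The letters of AP-1 (TGANTCA, 6.75% of windows), CRE (TGACGTCA, 1.55%), TEAD (CATTCC, 12.6%) and a pair of PPAR half-sites (0.0335%) were in none of the 9. A match is a description of letters and not of binding.

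Nmrk2 (gene ID 69564, chromosome 10, 81198170 to 81202265) phosphorylates nicotinamide riboside. In sham hearts it measured 5.29 FPKM at the lowest, 7.61 at the median and 10.88 at the highest, and it ranked 8 of the 10 genes by mean level. In MI_vehicle hearts it measured 47.25, 319 and 645.6 FPKM. In MI_DCA hearts it measured 11.88, 130 and 526.67 FPKM. Every infarcted heart lay above every sham heart, and Nmrk2 ranked 1 of the 10 genes in both infarcted groups. On the log2(FPKM + 1) scale the mean difference from sham was 4.92 (SE 0.47, n = 6 per group) in MI_vehicle and 3.30 (SE 0.92) in MI_DCA, 43.2 and 29.3 times as a ratio of mean FPKM. Both comparisons share the sham hearts. Among all genes tested, that difference ranked 2 from the top of 11969 in MI_vehicle and 5 of 11842 in MI_DCA.

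The MI_DCA hearts fell into separate ranges. Replicates 1, 3 and 5 measured 11.88, 23.72 and 14.36 FPKM of Nmrk2, while replicates 2, 4 and 6 measured 236.49, 516.2 and 526.67. The lower 3 are the MI_DCA hearts that lay near sham over all other genes, and the lowest MI_vehicle heart, replicate 4 with 47.25 FPKM, is the fourth such heart. Across the 4 infarcted hearts near sham, Nmrk2 was at 11.88 to 47.25 FPKM. Across the other 8 it was at 190.7 to 645.6 FPKM, with no overlap. The 4 hearts were set apart by their distance from sham, so any gene that differs with infarction can be divided likewise. The share of all genes divided in this way was not counted. The same limit applies to the ranges of Nampt, Naprt and Sirt3 in these 4 hearts given below. Without those 4 hearts the mean difference from sham was 5.40 in MI_vehicle and 5.58 in MI_DCA.

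Nampt (gene ID 59027, chromosome 12, 32820335 to 32853369) was the highest of the 10 genes in sham hearts, at 47.71, 60.0 and 61.34 FPKM (lowest, median, highest). It measured 19.9, 28.4 and 49.57 FPKM in MI_vehicle hearts and 19.66, 40.1 and 59.25 in MI_DCA hearts. The difference from sham was -0.89 (SE 0.21) in MI_vehicle and -0.65 (SE 0.27) in MI_DCA on the log2 scale, and in both comparisons some infarcted hearts lay within the sham range. The hearts near sham and the others were divided in the opposite direction to Nmrk2. The 4 infarcted hearts near sham held 49.57 to 59.25 FPKM of Nampt and the other 8 held 19.66 to 45.91 FPKM. The heart with the next lowest Nmrk2, MI_vehicle replicate 5 with 190.74 FPKM, had the next highest Nampt, 45.91 FPKM. Within the 8 the orders were otherwise not mirrored. MI_DCA replicate 2 had 236.49 FPKM of Nmrk2 with 19.98 of Nampt, and MI_DCA replicate 4 had 516.2 with 29.33.

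**Figure D1:**
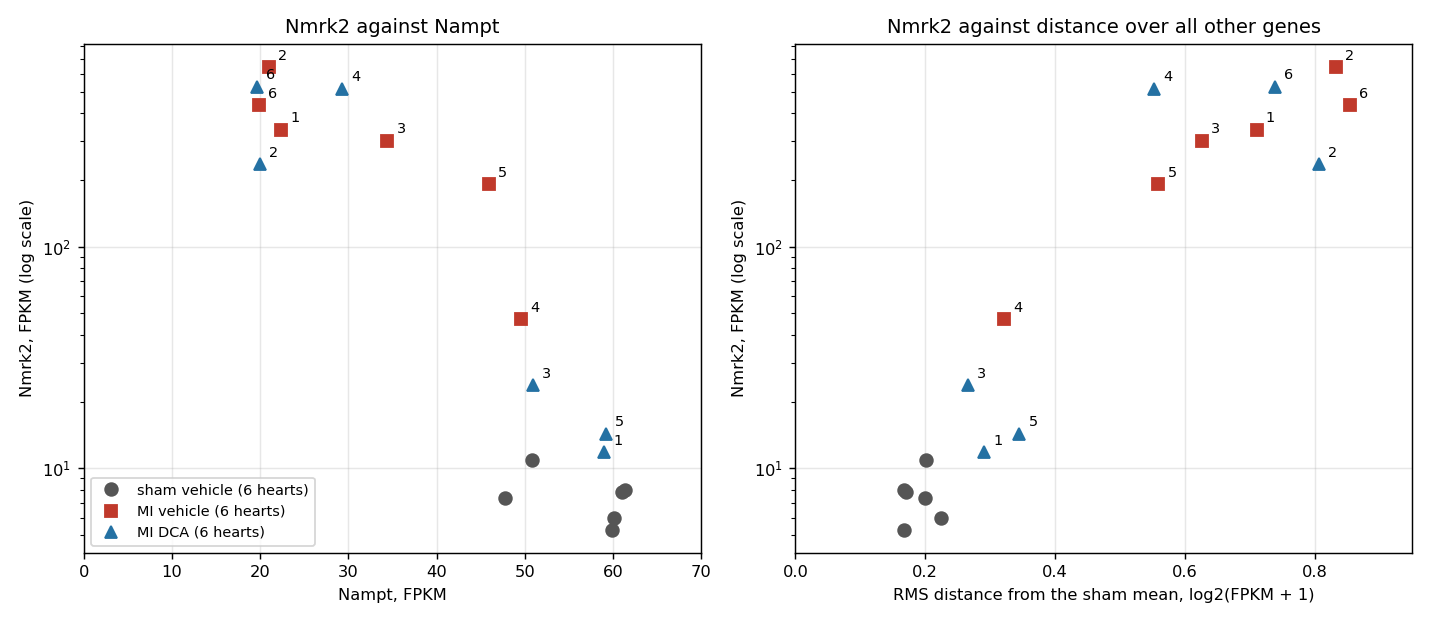
Each point is 1 library, with Nmrk2 in FPKM on a log axis against Nampt in FPKM (left) and against the root mean square distance from the sham mean over the genes other than the members (right); numbers are replicates of the infarcted groups. The 4 infarcted hearts with distances of 0.266 to 0.345 hold at most 47.25 FPKM of Nmrk2 and at least 49.57 FPKM of Nampt.

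Cardiomyocyte markers moved with Nampt, so its level was also set against them, a ratio added after the data had been seen. Summed fibroblast markers were at 1310 to 1640 FPKM in sham, 851 to 1230 in MI_vehicle and 577 to 1260 in MI_DCA hearts. Of 9, 3 rose and 3 fell in MI_vehicle, and 0 and 5 in MI_DCA. Summed endothelial markers were at 1720 to 3120, 1280 to 2010 and 1520 to 2540 FPKM. Of 9, 1 rose and 4 fell in MI_vehicle, and 0 and 0 in MI_DCA. No ratio of a member to these lists was made. Nampt per 1000 FPKM of the 12 summed cardiomyocyte markers was 1.08, 1.33 and 1.42 (lowest, median, highest) in sham hearts. It was 0.931, 1.15 and 1.41 in MI_vehicle and 0.851, 1.09 and 1.42 in MI_DCA hearts, so the ranges overlapped widely. For Nmrk2 the same ratio was 0.125, 0.174 and 0.26 in sham, 1.16, 12.6 and 33.5 in MI_vehicle and 0.285, 6.49 and 22.8 in MI_DCA hearts. Every infarcted heart exceeded every sham heart, as it did before the division. The ratio uses the same Nmrk2 values, so this order is not a separate result. Nmrk2 is also a gene of skeletal muscle. Of the 12 skeletal muscle markers, Ckm, which heart muscle also makes, gave nearly all of the summed level. Without it the other 11 summed to 9.6 to 19.8 FPKM in sham, 13.4 to 22.8 in MI_vehicle and 13.6 to 23.4 in MI_DCA hearts. Of the 5 skeletal muscle markers past the filter in MI_vehicle against sham, 2 (Tnnt3 and Tnni2) rose and 1 (Ckm) fell. In MI_DCA 0 of 4 rose and 1 (Ckm) fell. The defining fast fibre genes Myh4, Myh1 and Actn3 were at or below 0.02, 0.05 and 0.16 FPKM in all 18 libraries. The part of skeletal muscle RNA in the Nmrk2 level was not tested.

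Nmrk1 (chromosome 19, 18632016 to 18652428), the widely expressed kinase of the same step, did not share the pattern of Nmrk2. It was the lowest of the 10 genes in each group, at 3.9, 4.41 and 5.33 FPKM in sham hearts, 2.59, 3.79 and 4.56 in MI_vehicle hearts and 3.14, 4.11 and 4.55 in MI_DCA hearts. The difference from sham was -0.24 (SE 0.11) in MI_vehicle and -0.15 (SE 0.09) in MI_DCA. Naprt (chromosome 15, 75890963 to 75894481), of the nicotinic acid route, measured 8.54, 10.1 and 11.98 FPKM in sham hearts, 4.07, 7.47 and 12.27 in MI_vehicle and 4.68, 8.76 and 13.55 in MI_DCA. Its difference from sham was -0.41 (SE 0.21) in MI_vehicle and -0.27 (SE 0.23) in MI_DCA. Within the infarcted hearts Naprt was split much as Nampt was, at 11.48 to 13.55 FPKM in the 4 near sham and 4.07 to 11.57 in the other 8, of which 1 heart, MI_vehicle replicate 5, reached the upper range.

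In 8 of the 12 infarcted hearts, and in no sham heart, Nmrk2 exceeded Nampt in FPKM. The median ratio of Nmrk2 to Nampt FPKM per heart was 0.129 in sham, 11.9 in MI_vehicle and 6.15 in MI_DCA hearts, with ranges of 0.0883 to 0.214, 0.953 to 30.8 and 0.201 to 26.8. In the 3 MI_DCA hearts away from sham the median was 17.6. Nmrk2 to Nmrk1 had medians of 1.68, 89.4 and 34.8 in the same order, and Nmrk2 to Naprt 0.684, 43.2 and 26.1. Of the summed FPKM of the 4 entry enzymes, Nampt made up 72.2% at the median in sham hearts, 7.98% in MI_vehicle and 31.3% in MI_DCA, and Nmrk2 9.32%, 88.9% and 57.5%. The sum of Nampt, Nmrk1 and Naprt without Nmrk2 was 61.9 to 77.5 FPKM in sham hearts and reached down to 28.4 FPKM in infarcted ones. These are RNA levels, not enzyme amounts or NAD, and recovery that differs between genes is not corrected.

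**Figure D2:**
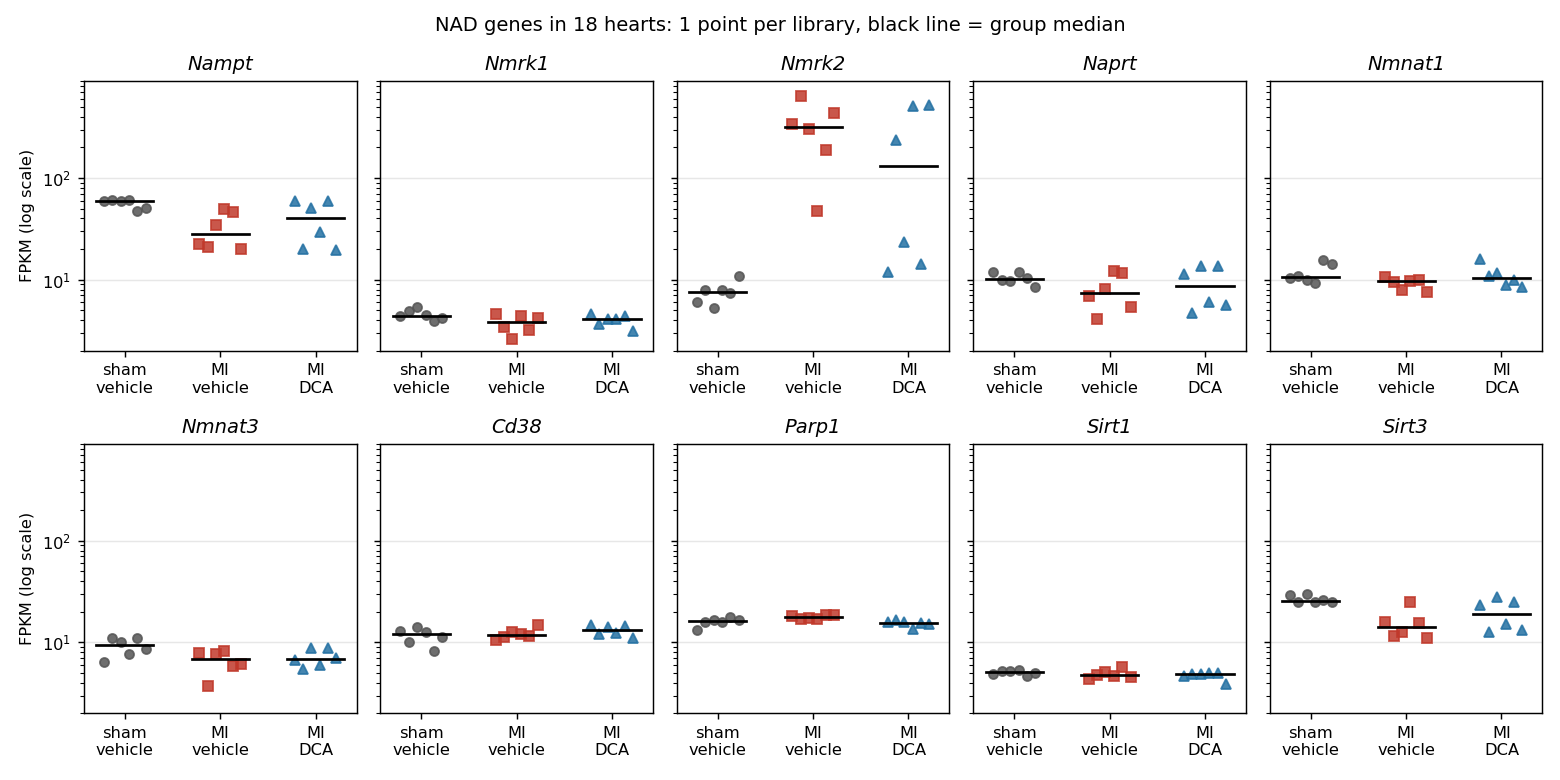
FPKM of the 10 genes on a shared log axis, with 1 point per library in sham vehicle, MI vehicle and MI DCA groups of 6 and a black line at the group median. Nmrk2 is the panel in which all infarcted hearts, from 11.88 FPKM, lie above all sham hearts, up to 10.88 FPKM.

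The enzymes of the last step differed from sham by amounts like those of Nmrk1 and Naprt. Nmnat1 (chromosome 4, 149467569 to 149485210), the nuclear form, measured 9.27, 10.6 and 15.58 FPKM in sham, 7.55, 9.62 and 10.7 in MI_vehicle and 8.52, 10.3 and 15.91 in MI_DCA hearts. Nmnat3 (chromosome 9, 98287433 to 98420533), the mitochondrial form, measured 6.34, 9.35 and 11.13 FPKM in sham, 3.71, 6.88 and 8.17 in MI_vehicle and 5.43, 6.9 and 8.73 in MI_DCA hearts. All groups overlapped for both genes. The log2 differences from sham were -0.30 (SE 0.13) in MI_vehicle and -0.09 (SE 0.16) in MI_DCA for Nmnat1, and -0.44 (SE 0.17) and -0.31 (SE 0.14) for Nmnat3.

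Of the consumers, Sirt3 showed the clearest difference from sham. Sirt3 (chromosome 7, 140863663 to 140882309) is the main protein deacetylase of mitochondria. It measured 24.92, 25.6 and 29.6 FPKM in sham hearts, 11.02, 14 and 25.05 in MI_vehicle hearts and 12.66, 19.2 and 27.72 in MI_DCA hearts. The difference from sham was -0.82 (SE 0.16) in MI_vehicle and -0.49 (SE 0.18) in MI_DCA. Its level separated the infarcted hearts as Nmrk2 did, in the opposite direction, with 23.19 to 27.72 FPKM in the 4 near sham and 11.02 to 15.78 in the other 8. Per 1000 FPKM of summed cardiomyocyte markers, Sirt3 had medians of 0.593 in sham, 0.581 in MI_vehicle and 0.584 in MI_DCA hearts, with overlapping ranges.

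The other consumers stayed within narrow ranges. Sirt1 (chromosome 10, 63319005 to 63339035), a deacetylase found mainly in the nucleus, measured 4.62, 5.12 and 5.4 FPKM in sham, 4.36, 4.75 and 5.69 in MI_vehicle and 3.9, 4.87 and 5.02 in MI_DCA hearts. Cd38 (chromosome 5, 43868809 to 43912374), a surface glycohydrolase of immune and endothelial cells among others, measured 8.21, 12 and 14.14 FPKM in sham, 10.44, 11.9 and 14.98 in MI_vehicle and 11.13, 13.2 and 14.84 in MI_DCA hearts. Parp1 (chromosome 1, 180568891 to 180600999), which builds ADP-ribose chains at DNA breaks, measured 13.24, 16.3 and 17.64 FPKM in sham, 16.79, 17.6 and 18.59 in MI_vehicle and 13.58, 15.6 and 16.61 in MI_DCA hearts. The log2 differences of these 3 genes from sham lay between -0.09 and 0.18. For Cd38 in MI_vehicle the difference of 0.08 changed sign to -0.05 with median-ratio scaling and -0.08 with quantile normalization, and for Parp1 it went from 0.14 to 0.00 with each.

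Counted over the 10 genes, 1 (Nmrk2) lay wholly above sham in MI_vehicle and 1, again Nmrk2, in MI_DCA, and none lay wholly below. Over all genes tested, 16.1% lay wholly above and 5.74% wholly below sham in MI_vehicle, and 6.31% and 2.84% in MI_DCA. The members' own count rests on the contrast behind their choice and is not read further. The median log2 difference over the members was -0.27 in MI_vehicle and -0.12 in MI_DCA, beside 0.12 and 0.05 over all genes. Other scalings lowered the MI_vehicle differences of all genes by a median of 0.12 (median-ratio) or 0.15 (quantile), since the common level of the genes is set differently. The changes printed for the members do not include that shift.

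The members were chosen around infarcted against sham hearts, with earlier results of these data known. A test between the infarcted groups is thus not fully independent of that choice. The members were tested between MI_DCA and MI_vehicle. In that comparison 0 of 10 members and 0.0% of all 12004 genes passed limma's test at an adjusted p under 0.05, with 1299 genes at an unadjusted p under 0.05, 192 higher and 1107 lower. The median log2 difference over all genes was -0.06, and 0.01 after median-ratio scaling or quantile normalization. How many of these genes would be higher or lower under those scalings was not counted. For Nmrk2 the mean difference of MI_DCA from MI_vehicle was -1.62 on the log2 scale (SE 1.04, 95% interval -3.88 to 0.64, adjusted p = 0.556 by limma, range over alternatives 0.245 to 0.892). That average rests on the hearts near sham, 3 of which were in MI_DCA and 1 in MI_vehicle. Without them the difference was 0.18 (adjusted p = 0.892 by limma). They were left out after the data were seen, by a distance measured after treatment. An effect of DCA on that distance and a milder infarct unrelated to DCA cannot be told apart here. The interval with all hearts includes both no difference and a large one.

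For Nampt the MI_DCA difference from MI_vehicle was 0.24 (SE 0.34, interval -0.50 to 0.98, adjusted p = 0.756 by limma), and -0.26 without the hearts near sham. For Sirt3 it was 0.33 (SE 0.23, interval -0.18 to 0.83, adjusted p = 0.583), and 0.05 without them. The intervals of Nmrk1 (-0.16 to 0.35), Sirt1 (-0.20 to 0.13), Cd38 (-0.11 to 0.31), Nmnat1 (-0.09 to 0.50) and Nmnat3 (-0.24 to 0.48) were narrower, and that of Naprt was -0.52 to 0.80. Adjusted p of these 6 genes ran from 0.561 to 0.842.

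Parp1 stood out among the members. All 6 MI_DCA hearts, up to 16.61 FPKM, lay below all 6 MI_vehicle hearts, from 16.79 FPKM. Its difference was -0.18 (SE 0.06, interval -0.32 to -0.05), with an unadjusted p = 0.0129 and an adjusted p = 0.407 by limma (0.142 to 0.774 over alternatives), so it did not pass. Groups that did not overlap were seen in 0.541% of all genes in this comparison. Without the hearts near sham the difference was -0.22, and with median-ratio scaling -0.11. The sham range of Parp1, 13.24 to 17.64 FPKM, overlapped both infarcted groups.

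The split between the transcripts of Nmrk2 differed between hearts as well. The authors' transcript files list 2, the curated NM_027120.2 and the predicted XM_011243554.1. The predicted one held 0.0% to 4.28% of Nmrk2 FPKM in 5 sham hearts and 29.4% in sham_vehicle replicate 5. It held 72.3% to 79.9% in the MI_vehicle hearts, the one near sham included at 74.9%. In MI_DCA it held 77.9%, 76.1% and 80.6% in replicates 2, 4 and 6 but 14%, 33.3% and 32.4% in replicates 1, 3 and 5. The sham heart that stands apart also had the highest summed hepatocyte (25.8 FPKM) and mesothelial (38.6 FPKM) markers of the 18 libraries. Whether other tissue in that sample bears on its Nmrk2 split was not tested.

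Both transcripts were at a higher level in MI_vehicle hearts. The lowest, median and highest levels of NM_027120.2 were 5.08, 6.66 and 10.88 FPKM in sham and 11.86, 76.2 and 129.53 in MI_vehicle. Those of XM_011243554.1 were 0.0, 0.25 and 2.17 FPKM in sham and 35.39, 243 and 516.06 in MI_vehicle. Each was higher in every MI_vehicle heart than in any sham heart. In MI_DCA they spanned 9.71 to 123.13 and 1.67 to 424.35 FPKM, and NM_027120.2 in replicates 1 and 5, at 10.22 and 9.71 FPKM, was within the sham range. The split is an estimate from single reads of about 50 bases, most of which fall in sequence that transcripts of a gene share, and transcript estimates were not replicated by another method. GENCODE lists 1 transcript with 7 exons for the gene. The exon structure of the predicted transcript was not used here.

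**Figure D3:**
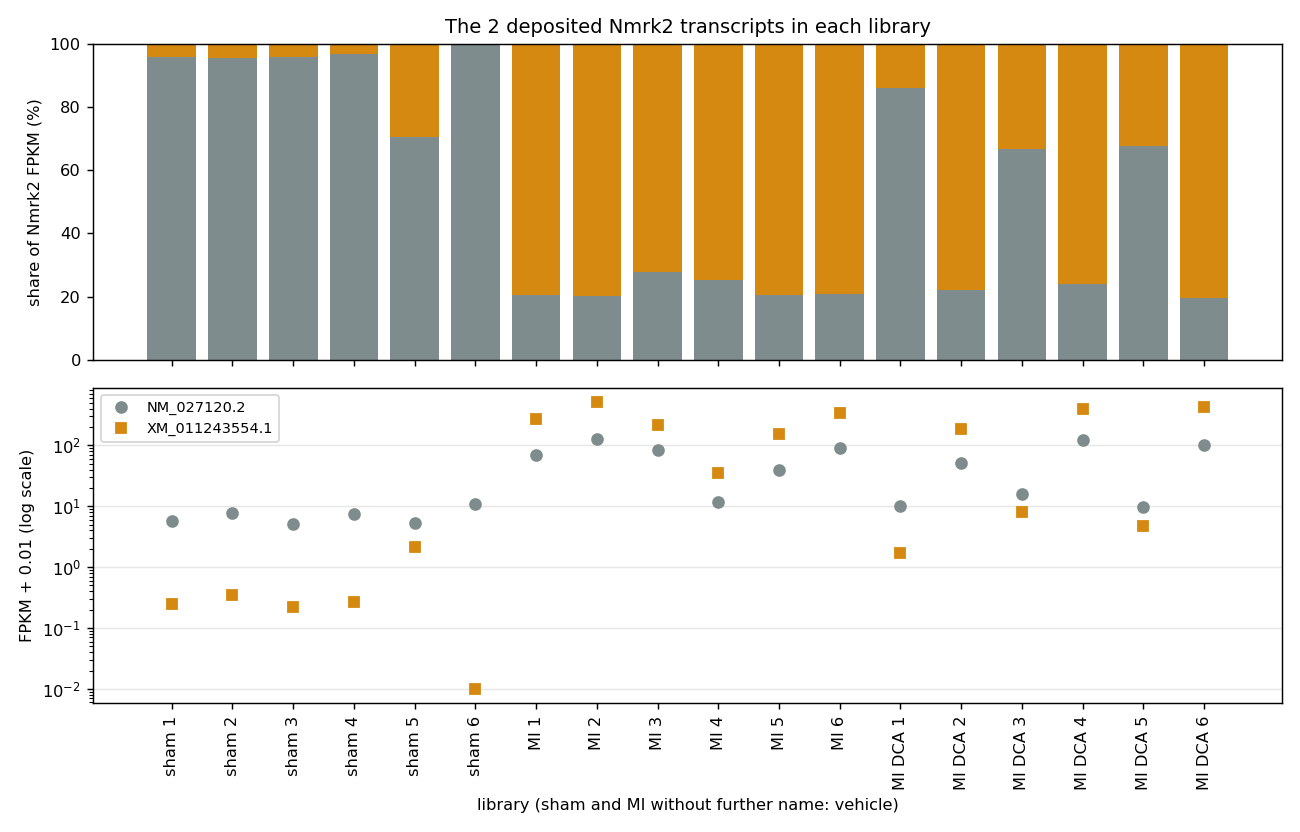
Share of each Nmrk2 transcript in percent of the gene's FPKM (top, stacked bars in the colours of the key) and its FPKM on a log axis with 0.01 added (bottom), for each of the 18 libraries. The predicted transcript holds 72.3% to 79.9% in the MI vehicle hearts and at most 4.28% in sham hearts other than replicate 5, and it is listed at 0 in sham replicate 6.

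Nampt, Naprt, Cd38 and Parp1 had 1 transcript each in the files, Nmrk1, Nmnat1 and Sirt1 had 2, Sirt3 5 and Nmnat3 9. For Nmrk1 the curated NM_145497.2 held 54.5% to 95.9% of the FPKM in sham and 77.0% to 97.1% in MI_vehicle hearts, so the ranges overlapped. Nmnat1 was split nearly evenly between its transcripts in all groups, with medians of 53.6%, 54.3% and 58.4% for NM_133435.1 in sham, MI_vehicle and MI_DCA hearts.

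The genes whose profile over the 18 libraries was nearest to Nmrk2 were found by the root mean square difference of mean-centred log2(FPKM + 1) among 12228 genes. Among the nearest were Ankrd2, a stretch-responsive muscle gene (0.88), AA467197 (0.90), Nppb, the brain natriuretic peptide gene (0.92), and Sprr1a, a small proline-rich protein gene (0.92). Nmrk2 itself deviated from its own mean by 2.55. The nearest member was Parp1 at 2.52 and the farthest was Nampt at 3.12, and 8 of the 9 members were farther from Nmrk2 than its own mean was. Ankrd2, AA467197, Nppb and Sprr1a were taken for their likeness to Nmrk2, so a shared split of the infarcted hearts is part of that choice. Ankrd2 was at 1.37 to 15.92 FPKM in the 4 hearts near sham and 15.93 to 134.2 in the other 8. Nppb was at 144.3 to 323.8 FPKM in the 4 hearts near sham and 1102 to 3500 in the other 8. Sprr1a was at 2.95 to 23.84 and 119.4 to 521.6 FPKM.

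Beyond the 10 genes, a list of 65 other NAD genes was examined in 10 classes. In MI_vehicle against sham 50 passed the filter, of which 17 rose and 16 fell by limma, with a median log2 difference of -0.02. Over all genes 38.3% were called higher and 20.1% lower. The list gave 13 higher and 22 lower after median-ratio scaling, or 14 and 23 after quantile normalization, while all genes went from 4583 higher and 2408 lower to 3379 and 3430, or 3195 and 3736. In MI_DCA against sham, 9 rose and 7 fell (median -0.02), beside 15.5% and 8.33% of all genes. Scaling gave 9 and 9, or 7 and 10, beside 1830 and 987 over all genes that became 1346 and 1393, or 1305 and 1554. In MI_DCA against MI_vehicle 0 of the 50 passed. Both comparisons with sham share the sham hearts. The class counts that follow are to be set beside these shares of all genes.

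Genes of the tryptophan route, side branches included, were sparse in these hearts: 9 of 12 listed genes lay below the filter. The other 3 fell in MI_vehicle, under both scalings as well. Of these, Kyat3 (-0.87, SE 0.17, adjusted p = 0.00109 by limma) and Kyat1 (-0.72, SE 0.16) are kynurenine aminotransferase genes of a side branch that does not lead to NAD. Afmid (-0.58, SE 0.12), the kynurenine formamidase gene, is on the path to NAD. In MI_DCA Kyat3 (-0.69) and Afmid (-0.51) fell and Kyat1 (-0.47) did not pass. The Afmid call in MI_DCA was lost without any 1 of sham_vehicle replicates 2 to 6 or MI_DCA replicates 2, 4 and 6 (adjusted p at most 0.0883). Qprt, the enzyme that feeds this route into NAD, was at 0.33 FPKM or less in every library. Nadsyn1, NAD synthetase of the nicotinic acid route, was at 2.49 ± 0.608 FPKM in sham and 2.40 ± 0.56 in MI_vehicle (SD, n = 6) and was not called.

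Enzymes that turn NAD into NADP and exchange their electrons moved apart. Nnt, the transhydrogenase of the inner mitochondrial membrane, fell from 321 ± 46.8 FPKM in sham to 161 ± 47.0 in MI_vehicle and 196 ± 59.7 in MI_DCA hearts (SD, n = 6). Its log2 difference was -1.03 (SE 0.18, adjusted p = 0.000521 by limma) and -0.76 (SE 0.19, adjusted p = 0.0219), and the second was lost without sham_vehicle replicate 5 (highest adjusted p = 0.0525). The mitochondrial kinase gene Nadk2 fell by 0.47 in both groups, and the cytosolic kinase gene Nadk rose by 0.61 in MI_vehicle and 0.44 in MI_DCA. The Nadk call in MI_DCA was lost without any 1 of sham_vehicle replicates 2, 5 and 6 or MI_DCA replicate 6 (adjusted p at most 0.0556 over all alternatives). Slc25a51, the mitochondrial NAD carrier, fell by 0.23 in MI_vehicle (adjusted p = 0.0165) and did not pass in MI_DCA (-0.19).

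Among 8 enzymes of the cell surface and of nucleotide breakdown, 4 rose and 2 fell in MI_vehicle, beside 38.3% and 20.1% of all genes. Bst1, a relative of Cd38 on myeloid and stromal cells, rose from 1.29 ± 0.221 to 5.55 ± 2.01 FPKM (SD, n = 6), by 1.47 (SE 0.17, adjusted p = 4.85e-05 by limma), and by 0.96 in MI_DCA (SE 0.23, adjusted p = 0.0183). Pnp, which splits nicotinamide riboside among other nucleosides, rose by 0.91 and 0.69. Enpp1, a surface pyrophosphatase, rose by 0.85 in MI_vehicle and did not pass in MI_DCA (0.29). Nt5e, which encodes the CD73 ectonucleotidase, was the fourth, at 0.73, and 13 of 20 alternatives lost its call (adjusted p at most 0.0903), both scalings among them and 1 library left out at a time: sham_vehicle replicates 1, 3, 4 and 6 and MI_vehicle replicates 1, 2, 3, 5 and 6. Nt5c1a (-0.62) and Enpp3 (-0.26) fell in MI_vehicle. Nnmt, which methylates nicotinamide for excretion, rose by 0.48 and Aox1, an aldehyde oxidase of nicotinamide products, fell by 1.18 in MI_vehicle, and neither passed in MI_DCA (0.25 and -0.73). Markers of monocytes, macrophages and neutrophils, given above, rose in the same groups as Bst1 and Pnp, and their part in the result was not tested.

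The PARP family apart from Parp1 had 7 of 14 genes higher and 0 lower in MI_vehicle, beside 38.3% and 20.1% of all genes. It had 5 higher and 3 lower with median-ratio scaling and 5 and 4 with quantile normalization. Parp14 (0.72, SE 0.12), Parp9 (0.65, SE 0.09) and Parp3 (0.64, SE 0.08) led, with adjusted p of 0.000348, 0.000156 and 6.04e-05 by limma, and kept their calls under all 20 alternatives. Parp9, Parp12 and Parp14 are interferon-inducible, and Parp3 acts in DNA repair. In MI_DCA 5 of 14 were higher, beside 15.5% of all genes, led by Parp14 (0.79), Parp9 (0.61) and Parp3 (0.54). Of the 5, the Parp10 call was lost under 8 of 20 alternatives (adjusted p at most 0.113 by limma), quantile normalization among them. The Parp12 call was lost under 6 (adjusted p at most 0.0839 by limma). Of 7 genes from families that remove ADP-ribose, 3 fell in MI_vehicle, Adprhl1 (-0.95), Macrod1 (-0.61) and Oard1 (-0.55), and 2 rose, Adprhl2 (0.38) and Adprh (0.28). Membership of a family does not show that each product has the activity. In MI_DCA Adprhl1 (-0.63) and Oard1 (-0.50) fell, and the Oard1 call was lost without any 1 of sham_vehicle replicates 2 to 6 or MI_DCA replicates 2, 4 and 6 (adjusted p at most 0.0686). Adprh lost its call in MI_vehicle with median-ratio scaling (adjusted p = 0.0833).

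Among 5 sirtuins other than Sirt1 and Sirt3, the nuclear Sirt6 (0.48) and nucleolar Sirt7 (0.40) rose and Sirt2 (-0.30), mainly cytosolic, fell in MI_vehicle. Sirt7 (0.31) rose in MI_DCA, a call lost with quantile normalization and without any 1 of sham_vehicle replicates 2, 3 and 6 or MI_DCA replicates 2 and 6 (adjusted p at most 0.0584). Of 4 measured genes of the mono-ADP-ribosyltransferase family, not all with a shown activity, 3 fell in MI_vehicle. Art4 went from 17.6 ± 2.28 to 6.52 ± 5.14 FPKM (SD, n = 6; -1.61, SE 0.39, adjusted p = 0.00334 by limma), Art1 from 172 ± 34.3 to 86.3 ± 69.8 (-1.50, SE 0.54, adjusted p = 0.0301) and Art3 from 280 ± 32.7 to 153 ± 44.1 (-0.91, SE 0.17). The Art1 call was lost under 7 of 20 alternatives (adjusted p at most 0.0664), among them without any 1 of sham_vehicle replicates 1, 3 and 4 or MI_vehicle replicates 1 and 6. In MI_DCA only Art4 passed of these 3, at -1.48, and 11 of 20 alternatives lost that call (adjusted p at most 0.0899), among them without any 1 sham_vehicle library or MI_DCA replicate 2, 4 or 6. The cardiomyocyte markers given above fell in both infarcted groups, as did Nnt, Adprhl1 and Art4, while Art1 and Art3 fell in MI_vehicle. The part of the cardiomyocyte markers in these falls was not tested. Sarm1, an NAD hydrolase of neurons, was at 0.2 FPKM or less in every library.

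**Figure D4:**
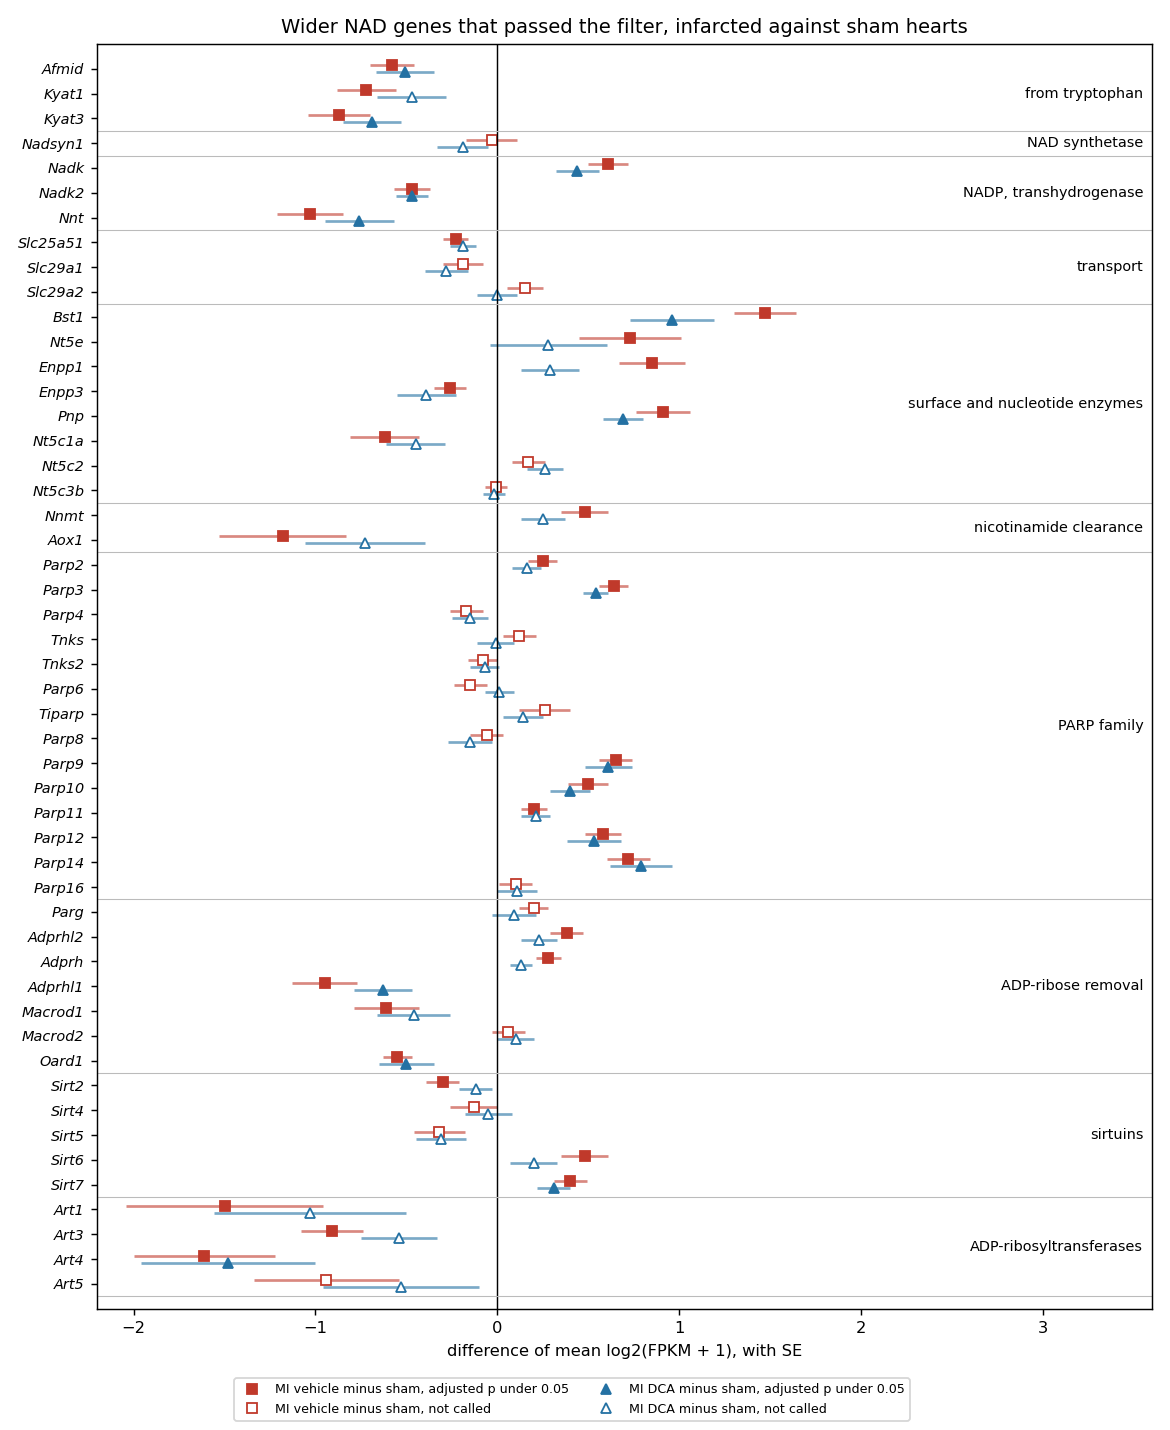
Mean difference from sham in log2(FPKM + 1), with SE, of the 50 wider NAD genes that passed the filter, for MI vehicle (squares) and MI DCA (triangles), filled where limma's adjusted p was under 0.05. Falls are led by Art4 (-1.61) and rises by Bst1 (1.47) in MI vehicle, and the PARP family has 7 filled squares, all to the right of 0. With median-ratio scaling 3 PARP genes were called lower, and with quantile normalization 4.

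The 15 listed genes below the filter were compared between MI_DCA and MI_vehicle by a two-sided exact permutation test. The smallest p was 0.0325 (adjusted p = 0.244 over 15 genes), for Kmo and Haao of the tryptophan route. Kmo had a median of 1.19 FPKM in MI_vehicle and 0.715 in MI_DCA, and Haao 0.825 and 0.335.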

How the data were processed

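RNA of the heart apex was sequenced as single reads on a BGISEQ-500 from RNA Access libraries, per the labels' protocols. Tools listed per the submitters' processing notes are RSEM 1.2.12, Bowtie2 2.2.5 and DESeq2 1.4.5, on build GRCm38.p6, with no role given. The deposited gene and transcript values are FPKM made by the authors; the unit was inferred from the values, and counts and depth are not stated. Depth was estimated from the steps of low values of 1231 genes within 8000000 to 16000000 reads, so a factor of 2 cannot be told apart, and FPKM give no counting interval.

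Groups follow the labels for tissue and treatment. log2(FPKM + 1) was modelled in limma 3.58.1 (R 4.3.3) with a trended prior variance. Genes entered with at least 1 FPKM in 6 or more of 12 libraries, and each comparison was fitted on its own groups without covariates. Benjamini-Hochberg adjustment ran over all genes tested, with calls under 0.05. The fold change of low genes is understated on this scale. The fit was tested on simulated data. Lower genes were compared by exact permutation. Tables were made with pandas 2.3.3 and numpy 2.4.6.

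The 10 members, the 65 further NAD genes and the marker lists were chosen with earlier results of these data known. All 65 matched, Parp7 as Tiparp and Adprs as Adprhl2. All members were named. Of each class, up to 3 called genes with the largest change per comparison were named, or the most abundant where none was called. Nt5e, Nt5c1a, Enpp3, Adprhl2, Adprh, Parp10, Parp12, Qprt, Sarm1, Kmo and Haao were added after their values were seen. Alternatives were pseudocounts of 0.5 and 0.1, no filter, median-ratio scaling, quantile normalization, a replicate block, 1 fit of all 3 groups, each library left out, and, chosen after seeing the data, the infarcted libraries nearest sham left out. Promoter sequences are from RefSeq tables. The 5 genes nearest to Nmrk2 in profile were taken by rule, and 1 of them is not reported here.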

Additional observations from a re-analysis of the deposited data

Results flagged for a closer look

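Each of the 10 genes was looked at in each group of 6 hearts, 30 tests in all, for a heart set apart from the other 5; chance alone marks about 1 in 20 groups. MI_vehicle replicate 4 had 25.05 FPKM of Sirt3, far above the other 5 hearts of its group, and it is the MI_vehicle heart that lay near sham over all other genes. MI_DCA replicate 6 had 3.9 FPKM of Sirt1, below the other 5 hearts of its group.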

How the results depend on the processing

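Of 815 values under alternatives, 780 moved by less than the spread between replicates, kept their side of the test or stayed within 1.5 times as counts, and 35 moved further. A change of sign was seen in 13 log2 differences with no call, of Nmrk2, Nampt, Naprt, Nmnat3, Cd38 and Sirt1. Of these, Nmrk2 went from -1.62 to 0.18, Nampt from 0.24 to -0.26, Naprt from 0.14 to -0.29 and Cd38 from 0.10 to -0.03, all in MI_DCA against MI_vehicle without the 4 infarcted libraries nearest sham. None of the called values reversed. Most movement was in MI_DCA against sham, where 2817 genes were called. That count was 6591 without the 4 infarcted libraries nearest sham, an alternative chosen after seeing the data, and 1055 to 4085 when 1 library at a time was left out, lowest without sham_vehicle replicate 5. The wider NAD genes there, 9 higher and 7 lower, numbered 21 lower without those 4 libraries, and 5 to 11 higher and 3 to 14 lower with 1 library left out. In MI_vehicle against sham 6055 to 7719 genes were called with 1 library left out. In MI_DCA against MI_vehicle the count was 0 to 1, the 1 being Gm42267 without MI_vehicle replicate 5 (-1.42, adjusted p = 0.0398 by limma).

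In MI_DCA hearts the median ratios of Nmrk2 to Nampt, Nmrk1 and Naprt were 17.6, 126 and 85.5 without the libraries near sham. The cause of these movements was not tested. Of the wider NAD calls in MI_vehicle against sham, 13 of 17 higher and 14 of 16 lower held under all 20 alternatives, and in MI_DCA against sham 5 of 9 and 3 of 7.

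Replicate numbers did not pair the libraries: of 6 same-numbered pairs, 1, 1 and 4 had correlated deviations over 0.1 in the 3 comparisons, and 1 library in each correlated best with its own number. With a replicate block MI_DCA against sham gave 1696 called genes, MI_vehicle against sham 6564 and MI_DCA against MI_vehicle 0.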
